A study of Caenorhabditis elegans with 45 samples.

Results

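The 9 genes described here, unc-54, myo-3, unc-15, act-4, lev-11, mup-2, unc-27, unc-22 and unc-89, encode the main contractile and filament-associated proteins of the body-wall muscle of Caenorhabditis elegans. They were taken by symbol from the 20182 genes of the count table, each matched through its WormBase identifier, and all 9 were present and tested.

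Body-wall muscle lines the length of the worm under the epidermis and moves it by sliding thick filaments of myosin along thin filaments of actin. Myosin heavy chains and paramyosin build the thick filament. Actin, tropomyosin and troponin build the thin filament, and calcium acts on troponin to let myosin bind. Giant proteins of the immunoglobulin and kinase family, twitchin and the obscurin-like UNC-89, sit along the thick filament and at its middle, the M-line. The dauer larva is a thin, non-feeding diapause stage that returns to growth when food is given.

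Polyadenylated RNA of whole worms was sequenced in 45 libraries, 1 per time point and without replicates, in 3 courses. In the dauer exit course, N2 wild-type dauer larvae were put on plates with OP50 bacteria and sampled every hour from 1 to 22 hours after this feeding (22 libraries). In the continuous N2 course, N2 larvae that had hatched without food were put on OP50 as first-stage larvae and sampled hourly, at hours 21 to 36 in the sample names (16 libraries). Per the labels these slowly growing worms had in fact developed for 22 to 37 hours, and the hours of the sample names are used below. In the continuous glp-4(bn2) course the same procedure was followed with this mutant, which is temperature-sensitive and has few germ cells at the restrictive temperature, sampled every 2 hours from 40 to 52 hours (7 libraries). The temperature of growth was left unstated (not given in the sources used here). All worms of all 3 courses were fed OP50.

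Total counts per library were 18521397 to 23904100 in dauer exit, 18512549 to 43984242 in continuous N2 and 23978316 to 36817376 in glp-4(bn2). Levels are given as CPM, the count scaled to a library total of 1000000. The smallest count of a contractile gene in any library was 44, for unc-27 at hour 6 of dauer exit (exact Poisson interval at a confidence level of 95%, 32.0 to 59.1, counting error only). The summed level of 15 germline markers was 93.8 to 166 CPM in glp-4(bn2) and 870 to 3635 CPM in continuous N2, and 15 neuronal markers summed to 471 to 2708 CPM in dauer exit and 473 to 1043 CPM in continuous N2. The glp-4(bn2) library at 52 hours stood apart, with genes of at least 10000 exonic bases at a median of -1.23 (log2) against the other glp-4(bn2) libraries and genes under 1000 bases at 0.37.

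The thick filament is built of 2 myosins and paramyosin. Unc-54 (WBGene00006789, chromosome I, 14855901 to 14863482, minus strand, WBcel235) encodes myosin heavy chain B, the major myosin of body-wall muscle. Its level was 65.6 CPM at hour 1 and 30.3 CPM at hour 2, its lowest. It then passed 74.9 CPM at hour 6, 180 CPM at hour 8, 359 CPM at hour 9, 884 CPM at hour 10, 2697 CPM at hour 11 and 3822 CPM at hour 12. From hour 13 it climbed slowly, from 3967 CPM to a highest value of 6021 CPM at hour 21. In continuous N2 the same gene lay between 5821 and 7696 CPM with a median of 6270.5 CPM (16 libraries), so the first 10 dauer exit libraries were far below every continuous library and the libraries of hours 20 and 21 were inside the continuous range. Because whole worms were measured, every level is a share of the RNA of the whole animal. Neither the number of muscle cells nor the RNA per muscle cell was measured.

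Myo-3 (WBGene00003515, chromosome V, 12226817 to 12234343, minus strand) encodes myosin heavy chain A, which sits at the centre of the thick filament. It rose earlier than unc-54, from 5.50 CPM at hour 1 to 10.2 CPM at hour 2, 27.6 CPM at hour 4 and 81.9 CPM at hour 6. After a pause at 76.0 and 89.5 CPM at hours 7 and 8 it went on to 242 CPM at hour 10, 542 CPM at hour 11 and 660 CPM at hour 12, and stayed between 503 and 699 CPM afterwards. Its continuous N2 levels were 600 to 895 CPM with a median of 752 CPM. In dauer exit 4 of the 22 libraries reached that range, the first of them at hour 12.

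Unc-15 (WBGene00006754, chromosome I, 7376604 to 7383197, minus strand) encodes paramyosin, the core protein of the thick filament. Unlike the myosins it went from 134 CPM at hour 3 to a lowest value of 72.8 CPM at hour 7. It then rose through 177 CPM at hour 9 and 418 CPM at hour 10 to 1089.8 CPM at hour 11 and 1579 CPM at hour 12, and reached 2094 CPM at hour 20. No dauer exit library entered the continuous N2 range of 2215 to 2720 CPM.

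The thin filament genes began at higher levels and rose less, with the exception of the troponins. Act-4 (WBGene00000066, chromosome X, 4960621 to 4964413, plus strand) encodes an actin of body-wall muscle. It was already at 721 CPM at hour 1, was at 943 CPM at hour 3 and at 571 CPM at hour 8, and rose to 1011 CPM at hour 10, 1558 CPM at hour 11, 1877 CPM at hour 12 and 3013 CPM at hour 20. All 22 values were under the lowest continuous N2 value of 3097 CPM. The row of act-4 is uncertain, because the actin genes are nearly identical and the handling of shared reads is unstated. The other actin rows were lower. Act-1 was at 28.7 ± 13.6 CPM in hours 1 to 3 and 142 ± 4.60 CPM in hours 20 to 22 (SD, n = 3 libraries each), act-2 at 133 ± 12.1 and 320.4 ± 14.2 CPM, and act-3 at 3.02 ± 1.14 and 17.4 ± 0.37 CPM. The strand used in counting is unstated as well, and the exons of act-4 overlap those of the opposite-strand gene M03F4.6, which did not exceed 78.4 CPM in any library.

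Lev-11 (WBGene00002978, chromosome I, 14621169 to 14631094, minus strand) encodes tropomyosin, which lies along the actin filament. Its level was 319 CPM at hour 1, 421 CPM at hour 3 and 194 CPM at hour 8, its lowest, before 355 CPM at hour 10, 956 CPM at hour 12 and 1396 CPM at hour 21. All dauer exit values were under the continuous N2 range of 1612 to 1994 CPM. The gene has 20 annotated transcripts, some of them used outside body-wall muscle, and the row sums them.

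Mup-2 (WBGene00003495, chromosome X, 6408471 to 6410227, minus strand) encodes troponin T, the subunit that ties troponin to tropomyosin. It went from 101 CPM at hour 1 to 31.9 CPM at hour 3 and was then higher in each next library up to hour 12, through 99.1 CPM at hour 6, 173 CPM at hour 9 and 267 CPM at hour 10 to 486 CPM at hour 11 and 606 CPM at hour 12. Its highest value, 807 CPM at hour 20, was under the lowest continuous value of 940.1 CPM.

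Unc-27 (WBGene00006764, chromosome X, 8789456 to 8790621, plus strand) encodes troponin I, the inhibitory subunit. It nearly vanished before it restarted, from 35.8 CPM at hour 1 to 7.56 CPM at hour 2 and 2.38 CPM at hours 5 and 6. It came back through 8.94 CPM at hour 8, 20.6 CPM at hour 9, 58.1 CPM at hour 10, 176 CPM at hour 11 and 274 CPM at hour 12, and was still climbing at hour 21, with 677 CPM. Its continuous N2 levels were 627 to 894 CPM, and 3 dauer exit libraries, the first at hour 20, reached them.

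The genes of the giant proteins had their steepest upward step between hours 10 and 11. Unc-22 (WBGene00006759, chromosome IV, 11972697 to 12011007, minus strand) encodes twitchin, a giant kinase of the thick filament. It lay between 138 and 207 CPM from hour 1 to hour 10, was at 162 CPM at hour 10, 633 CPM at hour 11 and 829 CPM at hour 12, and stayed between 582 and 832 CPM until hour 22. It was the member most often inside its continuous N2 range (547 to 1025 CPM), in 12 of the 22 libraries, beginning at hour 11. Its exons overlap those of the opposite-strand gene ZK829.9, which did not exceed 24.5 CPM.

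Unc-89 (WBGene00006820, chromosome I, 4035702 to 4090885, plus strand) encodes the obscurin-like giant protein of the M-line. It went from 141 CPM at hour 1 to 87.6 CPM at hour 8, and from 170.4 CPM at hour 10 to 529 CPM at hour 11 and 551 CPM at hour 12, its highest value. It was then at 307 CPM at hour 17 and was at 487 CPM at hour 21, against 395 to 654 CPM in continuous N2.

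**Figure D1:**
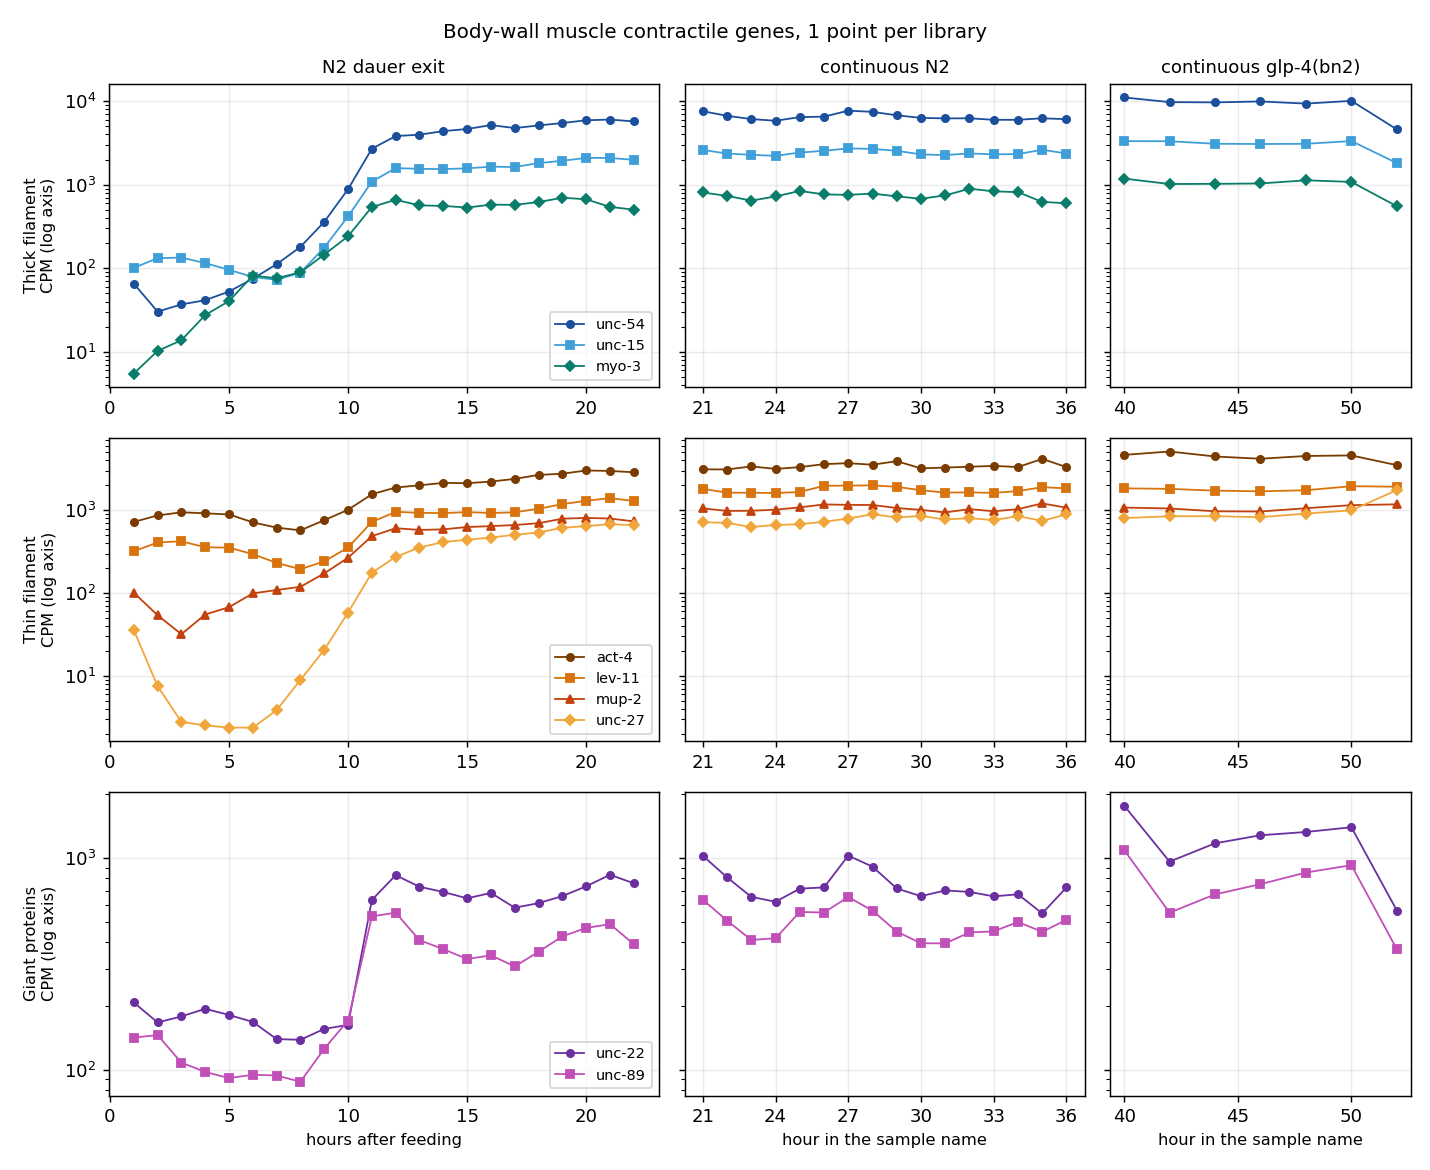
CPM of the 9 genes in every library (log axis, 1 point per library) against the hour, with the 3 courses in columns and the thick filament, thin filament and giant protein genes in rows. In dauer exit each gene rises steeply between hours 9 and 12, while in continuous N2 the curves stay nearly level, for unc-54 between 5821 and 7696 CPM. The last glp-4(bn2) library departs from the 6 before it for some genes, such as unc-54 and unc-27, but not for lev-11.

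Over the 22 hours all 9 genes were called higher, that is with an adjusted p under 0.05 for a smooth curve over the hour and a fitted log2 change from hour 1 to hour 22 of at least 1. Of the 15977 genes tested 29.9% were called higher and 24.7% lower, and the median fitted change was 3.62 for the 9 genes and 0.12 for all genes tested. The fitted change was 7.05 ± 0.65 for unc-54, 6.60 ± 0.33 for myo-3, 5.02 ± 0.91 for unc-27, 3.91 ± 0.55 for unc-15 and 3.62 ± 0.40 for mup-2 (log2 ± SE). It was smaller for unc-22 (1.83 ± 0.41), act-4 (1.76 ± 0.22), unc-89 (1.67 ± 0.45) and lev-11 (1.65 ± 0.32). Adjusted p-values ran from 3.49e-14 for myo-3 to 6.36e-06 for unc-89 (quasi-likelihood F-test of edgeR, adjusted by Benjamini-Hochberg). With 1 library per hour these p-values measure only the scatter of the libraries around the fitted curve. In measured levels, the mean of hours 20 to 22 was 133-fold that of hours 1 to 3 for unc-54, 58.1-fold for myo-3, 42.9-fold for unc-27, 16.8-fold for unc-15 and 12.5-fold for mup-2, but 4.21-fold for unc-22, 3.50-fold for act-4, 3.47-fold for lev-11 and 3.41-fold for unc-89 (3 libraries at each end). The genes with the smaller folds were those with the higher start, at 22.2% to 27.8% of their continuous N2 median in hours 1 to 3, while the others started at 0.71% (unc-54) to 5.99% (mup-2) of it. All 9 ended at 74.7% to 109% of that median, so a higher start gives a smaller fold by arithmetic.

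The rise was also tested in 3 separate windows. In hours 1 to 7 the genes did not move together. Myo-3 was called higher, with a fitted change of 4.30 ± 0.30 (adjusted p = 0.000139), and unc-27 lower, with -3.03 ± 0.93 (adjusted p = 0.0289, both by the quasi-likelihood F-test of edgeR, adjusted by Benjamini-Hochberg), where 32.1% of 13515 genes were called, 12.6% higher and 19.5% lower. The call of unc-27 rested on the library of hour 1. Without it the fitted change was -0.74 (adjusted p = 0.335), and the early rises of unc-54 (2.03, adjusted p = 0.000547) and mup-2 (1.56, adjusted p = 0.016) were then called by edgeR. In that fit 3 of the 9 were called higher, where 26.6% of all genes were called in either direction. Unc-54, mup-2 and unc-27 had the lowest ratios of hour 3 to hour 1 among the 9, and outside the 9 genes pat-10, the troponin C of body-wall muscle, went from 135 CPM at hour 1 to 34.0 CPM at hour 3. Unc-22 and unc-89 were also lower at hour 3 than at hour 1, by a smaller ratio, and act-4, lev-11, unc-15 and myo-3 were higher.

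In hours 8 to 14 the genes moved together. Of the 9, 8 were called higher, where 6.11% of the 13807 genes tested were, and the median fitted change over the window was 2.79 for the 9 genes and -0.02 for all genes. The changes called ran from 1.91 ± 0.21 for act-4 (adjusted p = 0.00445) to 5.74 ± 0.75 for unc-27 (adjusted p = 0.00719), with unc-54 at 4.87 ± 0.80 (adjusted p = 0.0149, quasi-likelihood F-test of edgeR, adjusted by Benjamini-Hochberg). Unc-89, with 2.43 ± 0.75, did not pass the test (adjusted p = 0.0842). Its adjusted p was 0.00635 in DESeq2 and 0.046 in edgeR without hour 11. Without hour 10, 6 of the 9 were called, and myo-3 (adjusted p = 0.062) and unc-22 (adjusted p = 0.0542) were not. In that fit 8.37% of all genes were called in either direction.

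In hours 15 to 22 none of the 9 reached a fitted change of 1, where 20.8% of the 15031 genes tested did and passed the test. The fitted changes ran from -0.04 ± 0.20 for myo-3 to 0.63 ± 0.08 for unc-27. In edgeR 8 of the 9 had an unadjusted p under 0.05 and 6 an adjusted p under 0.05 (37.6% of all genes), all of them upward, and DESeq2 also called 0 by the full rule. The slow late climb of unc-27 (adjusted p = 0.00107), lev-11 (0.61 ± 0.09, adjusted p = 0.00238) and act-4 (0.49 ± 0.10, adjusted p = 0.00711) was therefore larger than the scatter but small beside the rise before it (quasi-likelihood F-test of edgeR, adjusted by Benjamini-Hochberg).

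All 9 genes were higher at the end than at the start of each of the 4 steps from hour 8 to hour 12, and for all 9 the largest upward step of the course was the one from hour 10 to hour 11. It was 3.89-fold for unc-22, 3.10-fold for unc-89, 3.05-fold for unc-54, 3.03-fold for unc-27, 2.61-fold for unc-15, 2.24-fold for myo-3, 2.03-fold for lev-11, 1.82-fold for mup-2 and 1.54-fold for act-4, as ratios of CPM. In this step 7 of the 9 were higher by at least 1 on the log2 scale, where 6.57% of 9000 genes with a mean of at least 10 CPM did. The step is the one in which the 9 themselves rose most, so this share is only a description. The members' median step was 0.53 at hour 9, 0.63 at hour 10, 1.38 at hour 11 and 0.39 at hour 12 (log2), and between -0.11 and 0.18 in each step after that.

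The step to hour 11 was also large for other genes, and it moved with gene length. The median absolute step of the 9000 genes was 0.28 there and 0.11 to 0.19 in the other steps. Its median was 0.63 for the 49 genes with at least 10000 exonic bases, 0.40 for the 302 genes of 5000 bases up to that length and -0.05 for the 1930 genes under 1000 bases, and in the step before, from hour 9 to hour 10, these medians were -0.23, -0.15 and 0.01. Unc-22 and unc-89, with 23368 and 25942 exonic bases, belong to the first class and unc-54 and myo-3, with 6204 and 6104, to the second. Unc-27, at 933 bases, and mup-2, at 1465 bases, rose 3.03-fold and 1.82-fold in the same step. The part of the length difference in the size of this step was not tested. Measured across it, from hour 9 to hour 12, all 9 rose by at least 1 (log2), where 10.9% of the 9000 genes did, from 2.48-fold for act-4 to 10.6-fold for unc-54 and 13.3-fold for unc-27, with a median of 2.17 (log2) for the 9 and 0.13 for all. This span too is one in which the 9 rose, so its share is only a description.

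**Figure D2:**
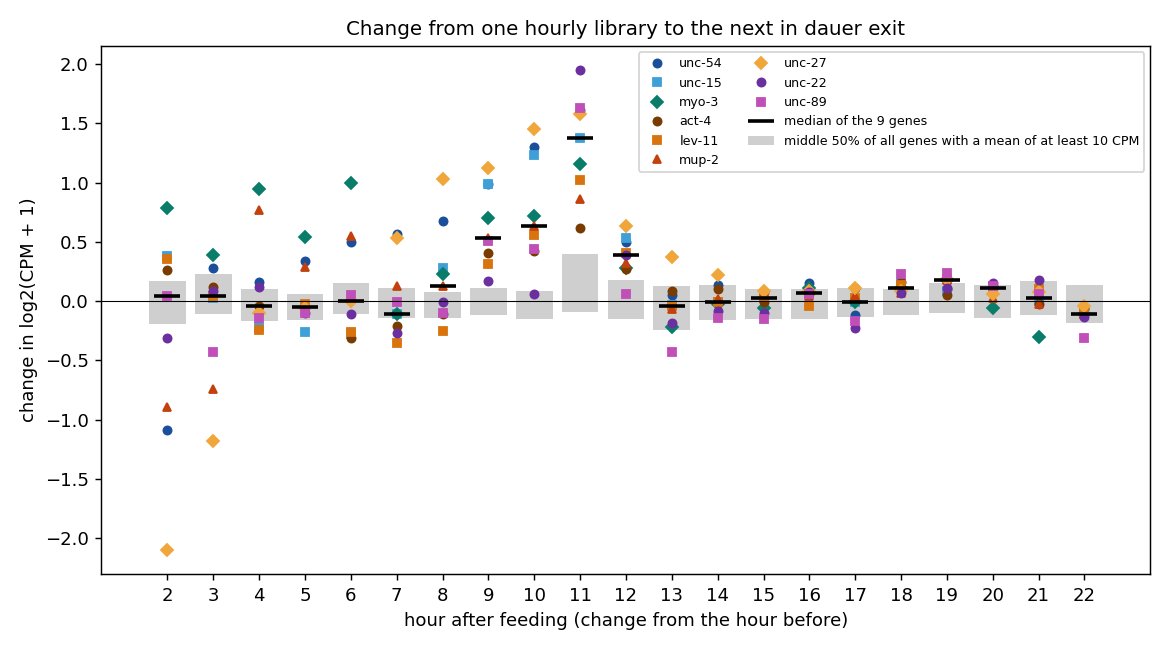
Change in log2(CPM + 1) of each of the 9 genes from 1 hourly library to the next in dauer exit, plotted at the later hour, with black bars at the median of the 9 and grey boxes over the middle 50% of the 9000 genes with a mean of at least 10 CPM. The medians of 0.53, 0.63 and 1.38 at hours 9, 10 and 11 stand above the grey boxes, and the grey box itself is widest at hour 11.

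The order in which the genes restarted was described by the hour at which log2(CPM + 1) first crossed the middle between the mean of hours 1 to 3 and the mean of hours 20 to 22. Myo-3 crossed first, at 5.88 h, followed by unc-54 at 9.37 h, mup-2 at 9.44 h, unc-15 at 10.2 h, unc-89 at 10.3 h, unc-27 at 10.3 h, unc-22 at 10.6 h, lev-11 at 11.0 h and act-4 at 11.1 h. Thus 8 of the 9 crossed between hours 9 and 12, as did 15.5% of the 4778 genes called higher over the 22 hours, whose median crossing was 11.5 h (quartiles 6.93 and 15.1 h). Hours 9 to 12 are those in which the 9 genes themselves rose, so these shares are only descriptions. A logistic curve fitted to the same values gave midpoints of 5.33 ± 0.94 h for myo-3, 9.11 ± 0.37 h for mup-2, 9.14 ± 0.14 h for unc-54, 9.99 ± 0.33 h for unc-27, 10.0 ± 0.13 h for unc-15, 10.7 ± 0.28 h for lev-11 and 11.1 ± 0.34 h for act-4 (± SE). Among neighbours in that order the gap was over 2 SE between myo-3 and mup-2 (3.78 ± 1.01 h), between unc-54 and unc-27 (0.85 ± 0.36 h) and between unc-15 and lev-11 (0.73 ± 0.31 h). Gaps next to unc-89, between unc-27 and unc-15, and next to unc-22, between lev-11 and act-4, had no SE and were not judged. Mup-2 and unc-54 were not separated (0.03 ± 0.40 h). For unc-89 and unc-22 the fitted rise fell within a single hour and no SE was obtained. On the linear scale the middle of the rise is a much higher level, and the order was different. Myo-3 crossed it at 10.2 h, mup-2 at 10.7 h, unc-54 at 11.2 h, lev-11 at 11.6 h, act-4 at 12.2 h and unc-27 last at 12.8 h. Unc-89, unc-22 and unc-15 crossed it between hours 10 and 11, so they too were before unc-54. The hour from which a gene stayed at 50% or more of its continuous N2 median was 11 for myo-3, unc-22 and unc-89, 12 for unc-54, unc-15, lev-11, mup-2 and act-4, and 14 for unc-27.

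**Figure D3:**
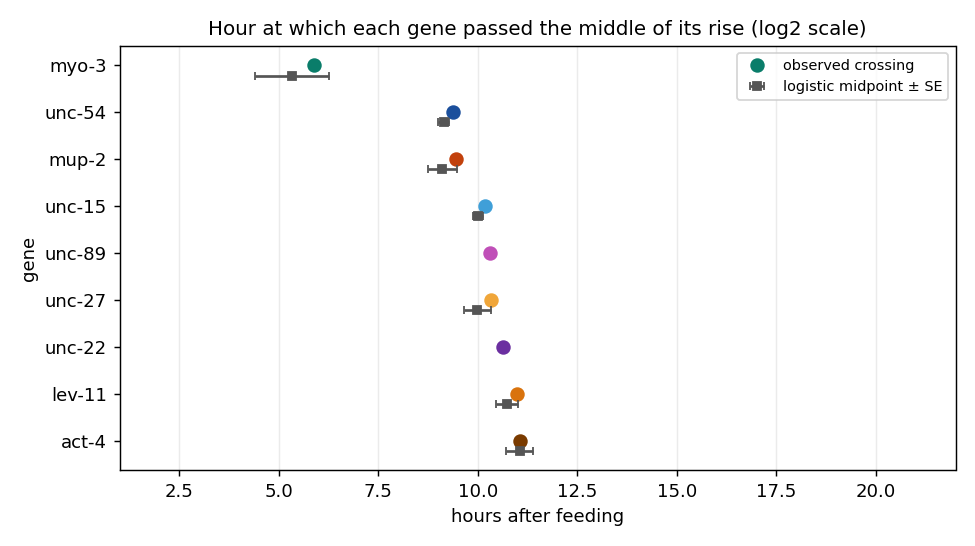
Hour after feeding at which each of the 9 genes crossed the middle of its rise on the log2 scale (circles) and midpoint of the fitted logistic curve with its SE (grey squares with bars, drawn where the SE could be estimated). Myo-3 is earliest at 5.88 h, and the other 8 lie between 9.37 and 11.1 h.

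Since the genes restarted from different levels and at different hours, the make-up of the contractile transcripts changed. The 9 genes together took 0.170% of all counts at hour 1, 0.145% at hour 7, their lowest, 0.357% at hour 10, 0.843% at hour 11, 1.12% at hour 12 and 1.58% at hour 21, against 1.62% to 2.05% in continuous N2. Within this sum, act-4 held 42.5% at hour 1, 50.7% at hour 4 and 19.2% at hour 22. Unc-54 held 1.67% at hour 2, 24.8% at hour 10 and 38.4% at hour 22, inside its continuous N2 range of 33.8% to 39.2%. These are shares of counts and not of molecules, since a longer transcript gives more counts.

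Ratios between partners of the same structure shifted too. The ratio of myo-3 to unc-54 counts, the 2 body-wall myosins of nearly equal length, was 0.0838 at hour 1, 1.09 at hour 6, the only library in which myo-3 was above unc-54, and 0.0879 at hour 22, and it was 0.0983 to 0.144 in continuous N2. The ratio of paramyosin to unc-54 went from 4.35 at hour 2 to 0.347 at hour 22. Troponin I to troponin T, unc-27 to mup-2, went from 0.354 at hour 1 to 0.0240 at hour 6 and was 0.902 at hour 22, just above its continuous N2 range of 0.615 to 0.846. The ratio of unc-89 to unc-22 moved least, between 0.503 and 1.05. These ratios carry no test, with 1 library per hour.

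**Figure D4:**
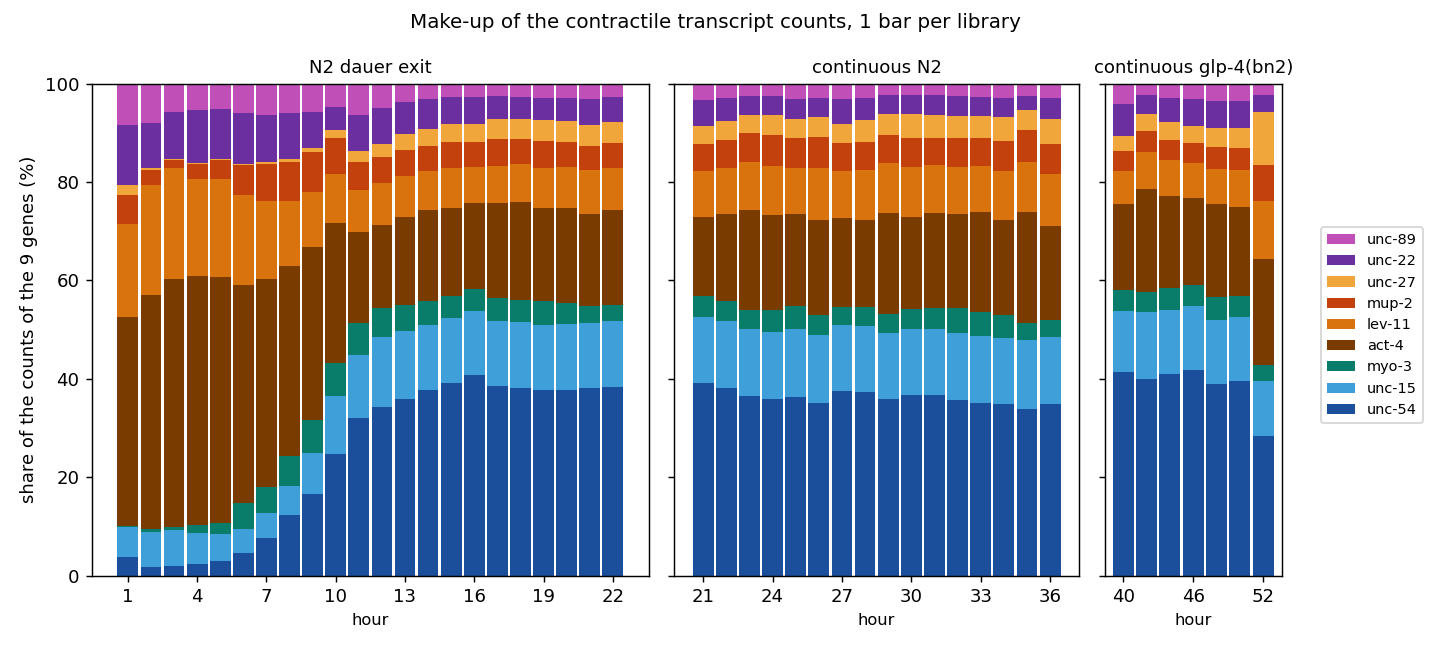
Share of each of the 9 genes in their summed counts (percent, 1 bar per library, bars stacked to 100%) in the 3 courses. Act-4 makes up 42.5% at hour 1 of dauer exit and unc-54 3.87%, and from about hour 12 the bars resemble those of continuous N2, where unc-54 holds 33.8% to 39.2%.

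In continuous N2 the same genes kept nearly level. The coefficient of variation over the 16 libraries was 6.67% for unc-15, 7.54% for mup-2, 8.29% for lev-11, 8.55% for act-4, 9.03% for unc-54, 10.5% for unc-27, 11.0% for myo-3, 16.5% for unc-89 and 18.3% for unc-22. Per kilobase of exon, the median levels ran in the order act-4 (2079 CPM per kb), unc-54 (1011), unc-27 (821), lev-11 (722), mup-2 (711), unc-15 (690.5), myo-3 (123), unc-22 (30.3) and unc-89 (18.3), with lev-11, mup-2 and unc-15 within 5% of each other, less than their variation across the hours.

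None of the 9 was called for a trend in continuous N2 (a log2 change of at least 1 from first to last hour), where 35.9% of the 15622 genes tested were. The fitted changes over the course ran from -0.54 ± 0.08 for unc-89 to 0.24 ± 0.09 for unc-27. By edgeR 4 had an unadjusted and an adjusted p under 0.05, the latter as did 61.4% of all genes (unc-89, unc-22 and unc-54 downward, unc-27 upward), and DESeq2 also called 0 by the full rule. An adjusted p under 0.05 was left for 3 of the 9 with RLE factors (59.1% of all genes), 3 without hour 21 (60.9%) and 2 without wave terms (51.9%). The change of unc-54 was -0.31 with TMM and -0.15 with RLE factors. The median of all genes was -0.12 with TMM factors and 0.04 with RLE factors, and with the latter the smaller changes of act-4, lev-11, mup-2, myo-3 and unc-15 moved to between -0.06 and 0.16, so no direction is given for those 5. Nor was any of the 9 called for an 8 h wave, the general period of the larval cycle, with an amplitude from mean to peak of at least 0.5 (log2), where 26.3% were. The amplitudes ran from 0.06 ± 0.04 for unc-27 to 0.30 ± 0.04 for unc-89. In edgeR 7 of the 9 had an unadjusted p under 0.05 and 6 an adjusted p under 0.05 (46.4% of all genes), so small waves were larger than the scatter for 6 genes, with unc-89 clearest (adjusted p = 3.92e-05, quasi-likelihood F-test of edgeR, adjusted by Benjamini-Hochberg), and DESeq2 called 0 by the full rule as well. In unc-89 the high libraries were at hours 21 and 27 (635 and 654 CPM) and the low ones at hours 23 and 31 (409 and 395 CPM). In hours 11 to 22 of dauer exit again 0 of the 9 were called for a wave, where 32.7% of 15360 genes were. By edgeR 2 had an unadjusted and an adjusted p under 0.05, the latter as did 55.9% of all genes: unc-89 (amplitude 0.29 ± 0.05, adjusted p = 0.00464) and unc-22 (0.14 ± 0.04, adjusted p = 0.0468), and DESeq2 called 0. These 2 are the longest of the 9. Genes of at least 10000 exonic bases, their class, had median steps of -0.22 from hour 12 to 13 and -0.19 from hour 16 to 17 (log2). The part of gene length in these 2 waves was not tested.

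The difference between the courses was tested itself, over 16 hourly libraries of each, hours 1 to 16 of dauer exit and 21 to 36 of continuous N2. The shapes of the 2 curves differed for all 9 genes, and in all 9 the fitted change over these 16 hours was higher in dauer exit by at least 1 (log2), where this held for 19.3% of 16394 genes. The difference was 6.91 ± 0.44 for myo-3, 6.80 ± 0.36 for unc-54, 3.90 ± 0.36 for unc-27, 3.36 ± 0.60 for unc-15, 2.92 ± 0.41 for mup-2, 2.24 ± 0.56 for unc-22, 1.20 ± 0.37 for act-4, 1.16 ± 0.48 for lev-11 and 1.05 ± 0.45 for unc-89. Adjusted p-values ran from 7.27e-18 for unc-54 to 1.98e-05 for lev-11 (quasi-likelihood F-test of edgeR, adjusted by Benjamini-Hochberg of the 3 interaction terms). The size of unc-89 dropped just under 1 with RLE factors (0.94) and with library size alone (0.95), so that 8 of the 9 then met the full rule. In CPM, all 9 genes had each of hours 1 to 10 of dauer exit below every continuous N2 library, as did 3.51% of 9376 genes with a mean of at least 10 CPM in these 2 courses.

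By the end of dauer exit the levels were near those of continuous N2 but mostly below them. The mean of hours 20 to 22 was 74.7% of the continuous N2 median for mup-2, 76.1% for myo-3, 77.2% for lev-11, 86.2% for unc-27, 87% for unc-15, 88.7% for act-4, 93.8% for unc-54, 94.6% for unc-89 and 109% for unc-22. Hours 15 to 22 of dauer exit were compared with hours 29 to 36 of continuous N2, 8 libraries each, where neighbouring hours stand in for replicates. Tropomyosin was at 1129 ± 188 CPM in dauer exit and 1747 ± 120.5 CPM in continuous N2 (SD, n = 8 libraries), troponin T at 719 ± 72.3 and 1039.8 ± 80.7 CPM, and unc-54 at 5351 ± 513 and 6225 ± 254 CPM. None of the 9 differed by 1 (log2), where 1.37% of 14842 genes did and passed the test. In edgeR 8 of the 9 were lower with an adjusted p under 0.05, which holds in either direction for 15.3% of all genes, and the same 8 had an unadjusted p under 0.05. Their differences ran from -0.30 ± 0.09 for unc-89 (adjusted p = 0.0345) to -0.64 ± 0.08 for mup-2 (adjusted p = 8.1e-05) and -0.74 ± 0.09 for lev-11 (adjusted p = 0.000116, quasi-likelihood F-test of edgeR, adjusted by Benjamini-Hochberg), while unc-22, at -0.06 ± 0.06, did not pass (adjusted p = 0.593) and changed sign with library size alone (0.04). DESeq2 called 0 by the full rule. With library size alone 7 of the 9 had an adjusted p under 0.05 (17.1% of all genes). With the last 4 hours of each course 3 did (2.09% of all genes), and 8 had an unadjusted p under 0.05 (24.4%). For unc-15, lev-11, mup-2, unc-27 and act-4 all 8 dauer exit values were below all 8 continuous values, as they were for 1.13% of 9376 genes, and for the other 4 the groups overlapped.

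**Figure D5:**
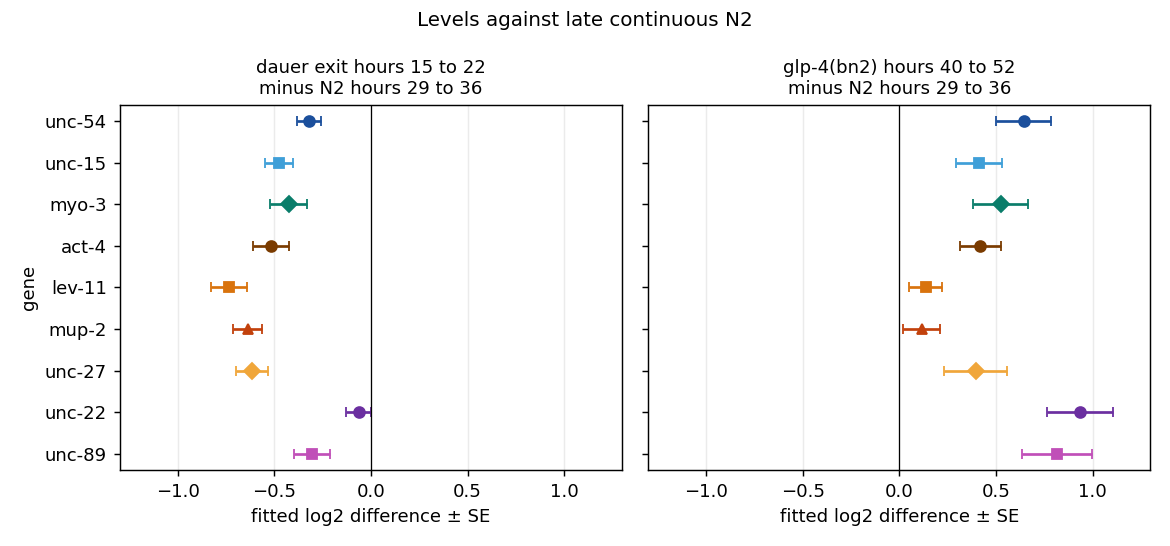
Fitted log2 difference with its SE of each gene against hours 29 to 36 of continuous N2, on the left for hours 15 to 22 of dauer exit and on the right for the 7 glp-4(bn2) libraries. On the left 8 of the 9 genes lie below 0 by more than 2 SE, from -0.30 to -0.74, and on the right all lie above 0, from 0.12 to 0.94.

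From 40 to 50 hours of glp-4(bn2) the genes were inside or above their continuous N2 ranges, and at 52 hours unc-54, myo-3, unc-15 and unc-89 were below them. Unc-54 was between 9344 and 11075 CPM in the 6 libraries from 40 to 50 hours, above all 16 continuous N2 libraries, and at 4593 CPM at 52 hours. Unc-22 was at 1767 CPM at 40 hours, between 960.5 and 1396 CPM from 42 to 50 hours and at 564 CPM at 52 hours. Lev-11 and mup-2, at 1689 to 1948 CPM and 964 to 1176 CPM, were inside their continuous N2 ranges at every hour. Against hours 29 to 36 of continuous N2 none of the 9 differed by 1 (log2), where 29.2% of 15257 genes did and passed the test. In edgeR 7 had both an unadjusted and an adjusted p under 0.05, as did 60.4% of all genes for the adjusted p, with differences from 0.40 ± 0.16 for unc-27 (adjusted p = 0.049) to 0.94 ± 0.17 for unc-22 (adjusted p = 0.000205), and lev-11 and mup-2 did not (quasi-likelihood F-test of edgeR, adjusted by Benjamini-Hochberg). DESeq2 called 0 by the full rule and 6 by its adjusted p, without unc-27 (adjusted p = 0.0753). Strain and age differ together in this comparison, the sum of the germline markers was at most 166 CPM in glp-4(bn2), and their parts in it cannot be told apart.

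The comparison was sensitive to the library of 52 hours, in which genes of at least 10000 exonic bases were low. There unc-54, myo-3, unc-15, unc-22, unc-89 and act-4 were at their lowest of the course. Unc-27, the shortest of the 9, was at its highest, 1748 CPM against 803 to 996 CPM before, and so was mup-2 (1465 exonic bases), at 1176 CPM after 1151 CPM at 50 hours. Act-4, among the lowest, is short as well, with 1601 bases. Without that library unc-22 was called higher (1.06, adjusted p = 1.23e-06 by edgeR). Over the 6 libraries from 40 to 50 hours 6 of the 9 genes (unc-54, myo-3, unc-15, act-4, unc-22 and unc-89) were above all 8 late continuous N2 libraries, where 12.9% of the genes were, and with all 7 libraries 0 were, where 8.49% were. The library of 40 hours was high for long genes (median 0.34 against the other glp-4(bn2) libraries), and without both it and that of 52 hours unc-22 was at 0.98, under the size asked for. No trend was called within glp-4(bn2) for any of the 9 (6.7% of 14407 genes, with 1 of the 9, unc-27, at an unadjusted p under 0.05 in edgeR, and 0 called by DESeq2). No wave was called either (0.0% of genes and 0 of the 9 at an unadjusted p under 0.05 by edgeR, and 0 of the 9 by DESeq2).

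Other genes of the muscle were read over the same 22 hours of dauer exit. Their lists were drawn up from general knowledge, but with earlier results of these data known. Of 15 other thin filament genes 10 were called higher and 2 lower. The largest rises were those of the troponin T gene tnt-2 (5.72 ± 0.61, adjusted p = 1.03e-11), the troponin I gene tni-3 (4.08 ± 0.29) and pat-10 (3.84 ± 0.45), and those called lower were unc-94, a tropomodulin that caps thin filaments (-1.53 ± 0.27), and its relative tmd-2 (-1.04 ± 0.17, not called with RLE factors, by edgeR). Tnt-2 held 4.17 to 10.6 CPM from hour 1 to hour 9, was at 16.0 CPM at hour 10, 72.7 CPM at hour 11 and 182 CPM at hour 12 and reached 550.4 CPM at hour 22, so that, like unc-27, it had its lowest values before hour 10 and its highest at the end.

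Of 5 other thick filament genes 0 were called over the 22 hours. In edgeR the fitted change was 0.60 to 0.83 for the myosin light chain genes mlc-1, mlc-2 and mlc-3, each with an adjusted p under 0.05. These 3 dipped to 32.2 CPM at hour 8 (mlc-1), 48.1 CPM at hour 9 (mlc-2) and 101 CPM at hour 8 (mlc-3) and were called higher in hours 8 to 14, by 3.26 ± 0.49, 2.54 ± 0.28 and 3.07 ± 0.40 (adjusted p = 0.0113, 0.00403 and 0.00689, quasi-likelihood F-test of edgeR, adjusted by Benjamini-Hochberg). Of 3 other immunoglobulin-repeat genes 2 were called higher, dim-1 (3.55 ± 0.33) and the kettin homolog ketn-1 (2.54 ± 0.18), and the titin-like ttn-1 was not (0.03 ± 0.24).

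Genes of the structures that anchor the filaments mostly rose. Of 22 genes of dense bodies, M-lines and attachments 13 were called higher, led by atn-1, the alpha-actinin of dense bodies (3.09 ± 0.42), the perlecan gene unc-52 of the basement membrane (3.08 ± 0.18) and the M-line and dense body protein gene unc-97 (2.41 ± 0.20). The dystrophin gene dys-1 (-1.41 ± 0.18) and the dystrobrevin gene dyb-1 (-1.05 ± 0.22) were called lower, 1 of these 2 no longer so with RLE factors. Of 9 genes of calcium and excitation 2 were called higher, the potassium channel gene twk-18 (2.75 ± 0.45) and csq-1 (2.36 ± 0.27), which encodes the calcium store protein calsequestrin, and 4 lower, among them the calcium channel subunit genes egl-19 (-1.81 ± 0.21), unc-36 (-1.46 ± 0.17) and ccb-1 (-1.39 ± 0.19). Of 9 neuromuscular receptor genes 0 were called higher and 5 lower, led by the acetylcholine receptor gene acr-16 (-2.58 ± 0.21), the GABA receptor gene unc-49 (-1.54 ± 0.23) and the receptor auxiliary gene molo-1 (-1.35 ± 0.27). Several of the calcium and receptor genes are also used in neurons, and the sum of the 15 neuronal markers went from 2278 CPM in hours 1 to 3 to 489 CPM in hours 20 to 22, with 12 of the 15 called lower and 0 at 0 CPM in all libraries. The part of this drop in the counts of these lists was not tested.

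Over the 22 hours the regulators of muscle fate did not follow the contractile genes. Hlh-1, the worm MyoD, was at 13.2 CPM at hour 1, 8.50 CPM at hour 10, 11.2 CPM at hour 11 and 4.71 CPM at hour 22, with a fitted change of -1.52 ± 0.18. The gene unc-120, the worm relative of serum response factor, was at 29.5 CPM at hour 1, 42.3 CPM at hour 2 and 24.5 CPM at hour 7. From 24.7 CPM at hour 8 it rose to 34.9 CPM at hour 10 and 44.1 CPM at hour 11, hours in which the contractile genes rose as well. At hour 22 unc-120 was at 12.9 CPM (fitted change -1.25 ± 0.24), and mef-2 also fell (-1.90 ± 0.23). All 3 tested regulators were thus called lower over the 22 hours by edgeR, and 0 of them was called in hours 8 to 14. The linear term of that window does not capture a rise followed by a fall, as in unc-120 before and after hour 11. Hnd-1 and ceh-51 were under 1 CPM in every library and were not tested. In continuous N2 the same 3 were called lower over the course, though with RLE factors 1 of them was.

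Pharyngeal muscle, which has its own contractile genes, was read in the same libraries. Of its 6 genes 0 were called higher and 5 lower over the 22 hours, led by tnc-2 (-2.06 ± 0.56), tnt-4 (-1.98 ± 0.73) and myo-1 (-1.79 ± 0.62), although with a spline of 5 degrees of freedom 0 were called. All 6 were called for the 8 h wave in continuous N2 and in hours 11 to 22 of dauer exit, with median amplitudes of 0.76 and 0.79 (log2), whereas 0 of the 9 body-wall genes were in either. In hours 8 to 14, however, their median fitted change was 1.76 (log2), with 2 of the 6 called higher and 0 lower by edgeR and 5 called higher by DESeq2, and the pharyngeal myosin gene myo-2 was at 332 CPM at hour 8, 416 CPM at hour 10, 891 CPM at hour 11 and 1104 CPM at hour 12, so that it was higher at hours 11 and 12 along with the body-wall genes. Their summed level was 3179 CPM in hours 1 to 3 and 1237 CPM in hours 20 to 22. Over the same 22 libraries 9 of 9 body-wall genes were thus called higher and 5 of 6 pharyngeal genes lower.

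Among markers of other tissues that whole worms hold, 13 of 15 germline genes were called higher (their sum went from 1289 to 4467 CPM between hours 1 to 3 and hours 20 to 22), as were 4 of 10 epidermal and 2 of 9 intestinal genes, with 2 and 1 called lower. Of 7 non-muscle myosin and actin genes 4 were called higher and 1 lower, and of 8 housekeeping genes 1 and 1. None of the markers in these lists was at 0 CPM in all libraries. These sums moved in the same libraries as the contractile genes, CPM is relative to all RNA of the worm, and the part of the other tissues in the rise was not tested.

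The genes whose course over the 22 dauer exit libraries was most like the mean of the 9 were gei-15, cpn-3, tag-18, dim-1, clik-1 and lgc-34, with Pearson correlations of 0.994, 0.993, 0.991, 0.991, 0.990 and 0.989 in log2(CPM + 1). Each of the 9 had a correlation of 0.899 (myo-3) to 0.994 (unc-15) with the same mean, to which it contributes. Neighbouring libraries share the time axis, so these correlations are descriptions. Clik-1, a calponin-like gene, went from 20.2 ± 3.11 CPM in hours 1 to 3 to 1367 ± 81.6 CPM in hours 20 to 22 (SD, n = 3 libraries each), and cpn-3, a calponin gene, from 2.64 ± 0.64 to 283 ± 7.56 CPM. Tag-18 went from 0.37 ± 0.41 to 129 ± 2.97 CPM, and gei-15 from 2.73 ± 0.51 to 42.6 ± 3.35 CPM.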

How the data were processed

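The authors deposited raw read counts per gene, whole numbers for 20182 genes in 45 libraries of polyadenylated RNA from whole worms. Per the labels' protocols, total RNA was extracted with Tri-reagent and the library kit was a stranded one for mRNA. Aligner, counter, strand setting, annotation and build were not given in the sources used here. Coordinates are those of WBcel235, which may differ from the build behind the counts, and exon length is the union of annotated exons. A table of log2 values deposited by the authors was used only as a check: each value equals log2 of (count scaled to the course's mean total, with 8 added), to 4 decimals. A names table gave symbols for 18778 identifiers.

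Tests used edgeR 4.0.16 under R 4.3.3 on the counts (filterByExpr, TMM, quasi-likelihood F-test, Benjamini-Hochberg adjustment over all genes tested), separately for each comparison. The 22 hours of dauer exit had a natural spline with 3 degrees of freedom and the windows a linear term. Continuous N2 and glp-4(bn2) had a linear term with the cosine and sine of 8 h. The 2 courses were compared by the interaction of course and spline. Calls needed a fitted change of at least 1 (amplitude 0.5) besides an adjusted p under 0.05. Fitted changes use edgeR's prior count. The scripts were tested on simulated data. Alternatives were DESeq2 1.42.0, RLE or no factors, no filter, other windows, curves and periods, and left-out libraries. CPM used library totals and log2 scales a pseudocount of 1.

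Courses and hours came from the sample titles. There are no replicates, and numbers within a course only name libraries. The members and the gene lists were chosen with earlier results of these data known. Named genes are the 9 members, up to 3 called genes in each direction of each list by fitted change over 22 hours, and the 6 genes with a symbol most correlated with the members' mean. Other genes named (the actins, myosin light chains, ttn-1, hnd-1, ceh-51) were added as comparisons after their values were seen. The listed genes tln-1 and opt-2 had no matching row. Python 3.11.15 with scipy 1.17.1 was used for the logistic curves.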

Additional observations from a re-analysis of the deposited data

Results flagged for a closer look

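In the glp-4(bn2) course the library of 52 hours was far from the other 6 for 4 of the 9 genes. Unc-54 was at 4593 CPM, myo-3 at 552.5 CPM and unc-15 at 1814 CPM, each the lowest of the course, and unc-27 at 1748 CPM, the highest. The gap to the nearest library was 0.733, 0.740, 0.827 and 0.796 of the whole range of the 7 values, above Dixon's critical value for 7 samples, which chance passes in about 1 in 20 groups. In the same library long genes were low and short genes high (medians of -1.23 and 0.37 against the other glp-4(bn2) libraries, log2), and the part of this in the 4 values was not tested.

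The shape of the curve over 16 hours differed between dauer exit and continuous N2 for all 9 genes by the joint test of the 3 interaction terms (quasi-likelihood F-test of edgeR, adjusted by Benjamini-Hochberg). The adjusted p-values in brackets belong to that test of shape and not to the difference in fitted change printed before them. That difference was 1.05 ± 0.45 for unc-89 and 1.16 ± 0.48 for lev-11 (log2 ± SE), the smallest of the 9. In the thick filament it was 6.91 for myo-3 (adjusted p = 2.86e-14), 6.80 for unc-54 (7.27e-18) and 3.36 for unc-15 (2.68e-10), in log2 units. In the thin filament it was 3.90 for unc-27 (1.98e-17), 2.92 for mup-2 (5.45e-11), 1.20 for act-4 (5e-06) and 1.16 for lev-11 (1.98e-05). For the giant proteins it was 2.24 for unc-22 (1.6e-06) and 1.05 for unc-89 (5.41e-08).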

How the results depend on the processing

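Of 68 alternatives that recount the members called, 66 gave a count within 1.5 times the reported one, and 581 of 612 fitted values kept both their direction and their side of the thresholds. Of the others 18 changed sign, none of them called in either fit, and the cause was not tested. These were, in hours 1 to 5 in place of 1 to 7, unc-54 (-0.008), lev-11 (0.178), mup-2 (-0.345), unc-22 (0.068) and act-4 (0.419), and in the glp-4(bn2) trend without 52 hours unc-54 (0.069), myo-3 (0.166), unc-15 (0.133), unc-22 (0.184), unc-89 (0.331) and act-4 (0.064). In the continuous N2 trend they were lev-11 with RLE factors and in DESeq2 (0.018 in both), lev-11 and mup-2 without wave terms (0.007 each) and act-4 without hour 21 (-0.085), and in the late level comparison unc-22 with library size alone (0.036) and with the last 4 hours of each course (0.063). Without wave terms 1 member was called for a trend in glp-4(bn2), unc-27 (1.02, adjusted p = 0.0416, edgeR). Without the library of 52 hours 1 was called in the level of glp-4(bn2) against continuous N2, unc-22, an alternative chosen after seeing the data, as were those without hours 10, 11 and 21 and without 40 and 52 together. On linear CPM the members' median crossing was at 11.0 h, against 10.3 h on the log2 scale. Among all genes, hours 8 to 14 gave 1333 calls, 2121 without the filter and 2365 in DESeq2, hours 1 to 7 gave 4341 and hours 1 to 5 2666, and the course comparison 7241, or 3994 with a linear term. The glp-4(bn2) trend gave 965 calls, 2178 in DESeq2, 1551 without wave terms and 2283 without 52 hours, and its wave 0 calls (549 at an unadjusted p under 0.05), 180 in DESeq2. A 7 h period gave 2086 waves in place of 4116 in continuous N2 and 1076 in place of 5025 in dauer exit. The late level comparison gave 203 calls and 362 without the filter. In these all-gene counts the cause was not tested, beyond the larger number of genes tested without the filter. RLE factors or library size alone moved the median of all genes by over 0.1 (log2) in the 22-hour change (0.12, 0.20 and -0.03), in hours 1 to 7 (0.01, -0.01 and -0.20), in the course comparison (-0.15, -0.26 and -0.25), in the trend in continuous N2 (-0.12, 0.04 and -0.03), in hours 8 to 14 (-0.02, -0.01 and 0.09) and in the glp-4(bn2) trend (0.01, 0.02 and -0.14). No paired analysis was possible because each time point has 1 library and replicate numbers only name libraries. The planned search of promoter motifs was not run, as promoter sequence was not used here. With 1 library per hour, counts per gene are deep and the scatter between hours sets the precision.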
